A study of Mus musculus with 5 samples.

Results

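AMP-activated protein kinase (AMPK) is described here through 8 genes, chosen by name from the 56748 genes in the deposited table. They are the catalytic subunits Prkaa1 and Prkaa2, the scaffolding subunits Prkab1 and Prkab2, the nucleotide-binding subunits Prkag1 and Prkag2, and the upstream kinases Stk11 (LKB1) and Camkk2. The set was put together because Prkaa2 was lower with the Cd5l transgene in these same libraries, so values of the 8 genes between genotypes are given as descriptions, and nothing is read from counts of the 8 that a fit over all genes called. The libraries, 1 per mouse, came from CD11b-positive cells of the brain without the cerebellum, taken from mice aged 7 months. All 5 mice carried 5xFAD, a set of transgenes with human familial Alzheimer mutations that leads to amyloid plaques. In 3 mice (5xFAD/Cd5l tg/wt, called Cd5l-transgenic below; replicates 1, 2 and 3) a transgene also forced expression of mouse CD5L, a scavenger-receptor-family protein that macrophages secrete. The other 2 mice (replicates 1 and 3) were 5xFAD without it. The Cd5l transgene was driven by the human PDGF-B promoter, which is widely used to direct expression to neurons, whereas the cells sequenced were selected for CD11b, an integrin of microglia and other myeloid cells. Wild-type mice, which the design also names, were not analysed here.

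AMPK is the main energy sensor of animal cells. It is a heterotrimer of a catalytic alpha, a scaffolding beta and a regulatory gamma subunit, each encoded by more than 1 gene, so several versions of the complex can form. AMP and ADP bind the gamma subunit when ATP runs low, and LKB1 then phosphorylates a threonine in the activation loop of the alpha subunit. CaMKK2 phosphorylates the same threonine when calcium rises. Active AMPK slows fatty acid, cholesterol and protein synthesis and promotes fatty acid oxidation and autophagy. In macrophages and microglia it is known for restraining inflammatory activation, and the alpha 1 subunit is the usual catalytic form of myeloid cells.

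The alpha genes are close relatives, so their sequences bear on whether their counts can be told apart. The coding stretch around the activation-loop threonine is shown for both, 5′ to 3′ on the coding strand, with the threonine codon in capitals (GENCODE M21 transcripts, GRCm38). In the Prkaa2 transcript it is codon 172 of 552, in exon 5, at chr4:105049351-105049413 on the minus strand of that build. In the Prkaa1 transcript it is codon 183 of 559, in exon 5, at chr15:5169937-5169999 on the plus strand.
Prkaa2: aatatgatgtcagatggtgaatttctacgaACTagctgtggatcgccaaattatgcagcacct
Prkaa1: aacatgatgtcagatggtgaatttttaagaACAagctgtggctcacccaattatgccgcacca
The encoded amino acids were the same at all 21 codons (0 differed), but 9 of the 63 bases differed and the longest identical run was 21 bases. Over the whole coding sequence Prkaa1 and Prkaa2 were identical at 71.2% of 1626 aligned bases. No 50-base stretch of either transcript occurred in the other, or in any transcript of another gene. Prkab1 and Prkab2 shared 73.3% of 799 aligned coding bases and Prkag1 and Prkag2 67.7% of 990, also with 0 shared stretches of 50 bases. The sources used here do not state the read length, and reads much shorter than 50 bases could be less specific.

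The libraries held 30798377 to 34794617 counts, so that 3 counts corresponded to 0.0862 to 0.0974 CPM by the library total alone. The CPM values below are counts scaled to the library total and then by TMM factors of 0.952 to 1.02. Cd5l had 7230, 10680 and 6438 counts in the Cd5l-transgenic libraries and 45 and 9 counts in the 5xFAD libraries, the direction that the labels give. Itgam, which encodes CD11b, stood at 319.5, 305.5 and 363.4 CPM in Cd5l-transgenic libraries and at 343.9 and 354.7 CPM in 5xFAD libraries. The 10 microglial markers summed to 24600 to 26560 CPM with the transgene and 24360 to 25850 CPM in 5xFAD. Other brain cell types were present at much lower levels and unevenly. The 12 choroid plexus and ependymal markers, all lower with the transgene on average, summed to 277.3, 559.0 and 353.6 CPM in Cd5l-transgenic replicates 1, 2 and 3, against 459.2 and 2903 CPM in 5xFAD replicates 1 and 3. The 10 oligodendrocyte markers, all higher on average, summed to 1150, 4583 and 394.3 CPM against 384.5 and 365.1 CPM. The 5xFAD replicate 3 and Cd5l-transgenic replicate 2 libraries therefore stood apart. So did 5xFAD replicate 1, in genes of plaque-associated microglia, here 3 chosen after their values were seen. Spp1 stood at 744.3, 586.2 and 461.3 CPM in Cd5l-transgenic libraries, against 2766 and 603.2 CPM in 5xFAD replicates 1 and 3. Gpnmb stood at 546.7, 528.2 and 345.8 CPM against 2121 and 431.0 CPM, and Itgax at 776.9, 750.2 and 735.7 CPM against 1503 and 833.7 CPM. For many of the genes below, values without 1 of these libraries are given too. In bulk RNA, fewer cells of a type and less RNA per cell cannot be told apart.

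Prkaa2, the alpha 2 catalytic subunit (ENSMUSG00000028518, GRCm39 chromosome 4, 104887071 to 104967087, minus strand), was the only one of the 8 genes whose genotypes did not overlap. It had 187, 211 and 226 counts in Cd5l-transgenic replicates 1, 2 and 3, against 328 and 335 counts in 5xFAD replicates 1 and 3. Scaled for library size, Prkaa2 stood at 6.04, 6.62 and 6.84 CPM in the Cd5l-transgenic libraries and at 11.1 and 9.45 CPM in the 5xFAD libraries. All 3 transgenic values were low and close together, and the highest lay 27.7% below the lower 5xFAD value. The mean was 6.50 ± 0.410 CPM (SD, n = 3) with the transgene and 10.3 ± 1.17 CPM (SD, n = 2) in 5xFAD, a ratio of 0.632.

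The log2 fold change of Prkaa2 was -0.66 (standard error, SE, 0.15), and 6.6% of all tested genes had a value as low or lower. Of 17724 tested genes, 8.69% lay in all Cd5l-transgenic libraries below both 5xFAD libraries and 7.2% lay above both, beside which 1 of the 8 genes lay below both and none above. The edgeR quasi-likelihood test with Benjamini-Hochberg adjustment called 0% of all genes lower and 0% higher at a threshold of 0.05, and hence none of the 8. At an unadjusted p under 0.05 it found 1.5% of genes lower and 1.14% higher. As the same test did not call Cd5l, its 0 calls do not show that genes were unchanged. The DESeq2 Wald test called 9 genes higher (0.0615%) and 2 lower (0.0137%), with none of the 8 among them.

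Leaving out each library in turn gave log2 fold changes of Prkaa2 from -0.77 to -0.54, with the value nearest 0 when 5xFAD replicate 1, the library richest in Spp1, Gpnmb and Itgax, was left out. Since the genotypes do not overlap, the shared sign of these values is fixed and adds no support. Without 5xFAD replicate 3, the library richest in choroid plexus markers, it was -0.77. Without that library and Cd5l-transgenic replicate 2, the library richest in oligodendrocyte markers, it was -0.78. The part of these markers in the Prkaa2 value was not tested.

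**Figure D1:**
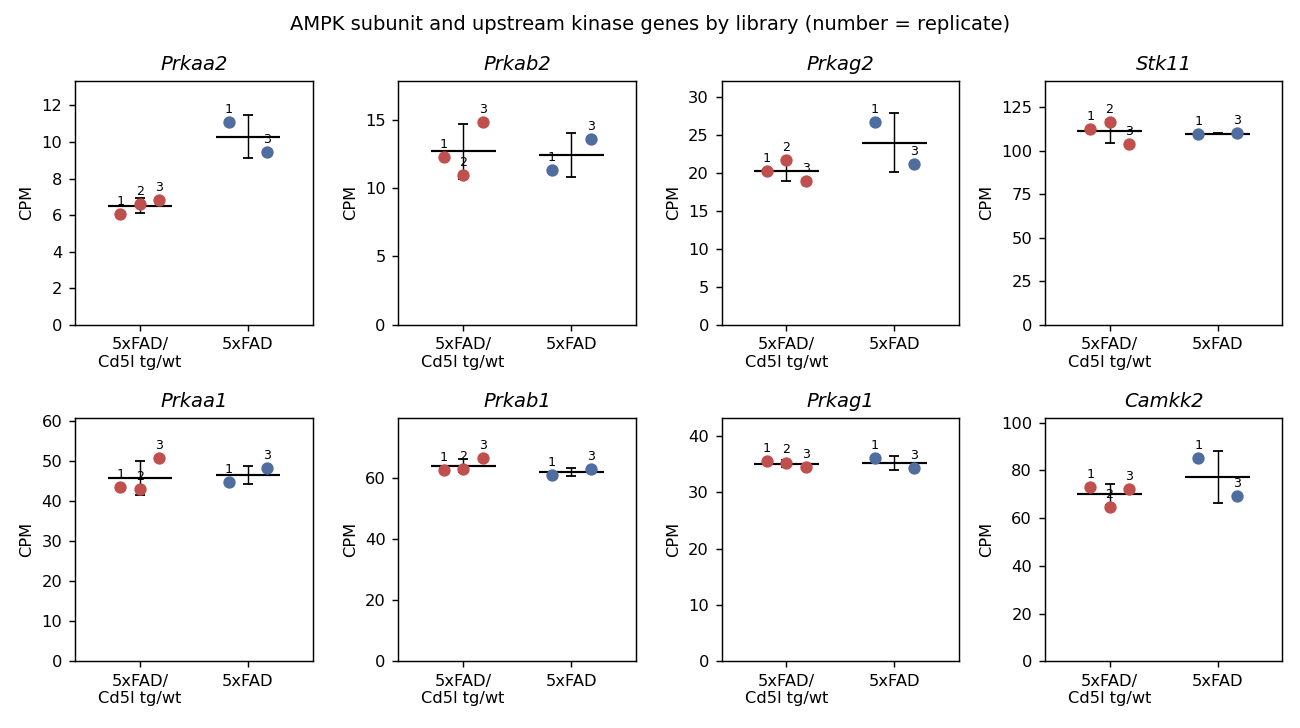
Each panel plots 1 gene, with CPM (scaled by TMM, axis from 0) for the 3 Cd5l-transgenic libraries on the left and the 2 5xFAD libraries on the right. Points are libraries numbered by replicate, and lines and bars show the mean and SD. Only Prkaa2 has all Cd5l-transgenic points, 6.04 to 6.84 CPM, below both 5xFAD points, 9.45 and 11.1 CPM.

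Prkaa1, the alpha 1 catalytic subunit (ENSMUSG00000050697, chromosome 15, 5173343 to 5211380, plus strand), overlapped between genotypes. It stood at 43.7, 43.0 and 50.8 CPM in the Cd5l-transgenic libraries and at 44.97 and 48.3 CPM in the 5xFAD libraries. The transgenic values spanned the 5xFAD ones. The mean was 45.8 ± 4.29 CPM (SD, n = 3) with the transgene and 46.6 ± 2.34 CPM (SD, n = 2) in 5xFAD, for a log2 fold change of -0.02 (SE 0.10). Its sign changed with the library left out, from -0.09 to 0.03.

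Scaled for gene length (RPKM), Prkaa2 was the minor alpha gene in every library. Prkaa1 averaged 9.91 RPKM over the 5 libraries and Prkaa2 1.01 RPKM. Prkaa2 made up 7.48%, 8.24% and 7.29% of the summed alpha level in Cd5l-transgenic replicates 1, 2 and 3, against 12.6% and 10.3% in 5xFAD replicates 1 and 3. The share averaged 7.67% ± 0.504 (SD, n = 3) with the transgene and 11.4% ± 1.66 (SD, n = 2) in 5xFAD, a difference of -3.77 percentage points. That difference was -2.59 points without 5xFAD replicate 1 and -4.95 points without 5xFAD replicate 3. The summed alpha level, which Prkaa1 dominates, was 10.1, 10.1 and 11.8 RPKM with the transgene and 11.1 and 11.6 RPKM in 5xFAD. These sums overlapped between genotypes.

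The scaffolding subunits showed no separation. The beta subunit holds the complex together, carries a domain that binds glycogen, and ties the alpha to the gamma subunit. Prkab1 (ENSMUSG00000029513, chromosome 5, 116151645 to 116162567, minus strand), the major beta gene, stood at 62.7, 62.9 and 66.6 CPM in the Cd5l-transgenic libraries and at 61.1 and 63.0 CPM in the 5xFAD libraries. Its log2 fold change was 0.05 (SE 0.07), and the genotypes overlapped. Prkab2 (ENSMUSG00000038205, chromosome 3, 97565509 to 97581128, plus strand) stood at 12.2, 10.9 and 14.9 CPM with the transgene and at 11.3 and 13.6 CPM in 5xFAD. Its log2 fold change was 0.03 (SE 0.17), with values from -0.09 to 0.17 when a library was left out. Prkab2 made up 10.5%, 9.47% and 11.8% of the summed beta RPKM with the transgene and 10.001% and 11.5% in 5xFAD. The beta 2 share thus overlapped between genotypes.

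The gamma subunits, which bind AMP, ADP and ATP in their CBS repeats, overlapped in CPM as well. Prkag1 (ENSMUSG00000067713, chromosome 15, 98710678 to 98729402, minus strand) had the smallest spread of the 8 genes. It stood at 35.7, 35.3 and 34.4 CPM in the Cd5l-transgenic libraries and at 36.1 and 34.4 CPM in the 5xFAD libraries, a coefficient of variation of 2.12% over the 5 libraries. Its log2 fold change was -0.0029 (SE 0.08). Prkag2 (ENSMUSG00000028944, chromosome 5, 25067742 to 25305640, minus strand) stood at 20.2, 21.7 and 18.9 CPM with the transgene and at 26.7 and 21.2 CPM in 5xFAD. Only 5xFAD replicate 1 was apart, and Cd5l-transgenic replicate 2 lay above 5xFAD replicate 3. The log2 fold change of Prkag2 was -0.24 (SE 0.13), or -0.065 without 5xFAD replicate 1 and -0.40 without 5xFAD replicate 3. Its share of the summed gamma RPKM was 15.96%, 17.08% and 15.54% with the transgene and 19.91% and 17.15% in 5xFAD. All transgenic shares thus lay below both 5xFAD shares, but 17.08% and 17.15% nearly met. Prkag3, the gamma subunit of skeletal muscle, had 0, 1 and 3 counts in the Cd5l-transgenic libraries and 0 and 0 counts in the 5xFAD libraries, at or under the limit of 3 counts, and no fold change is given.

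**Figure D2:**
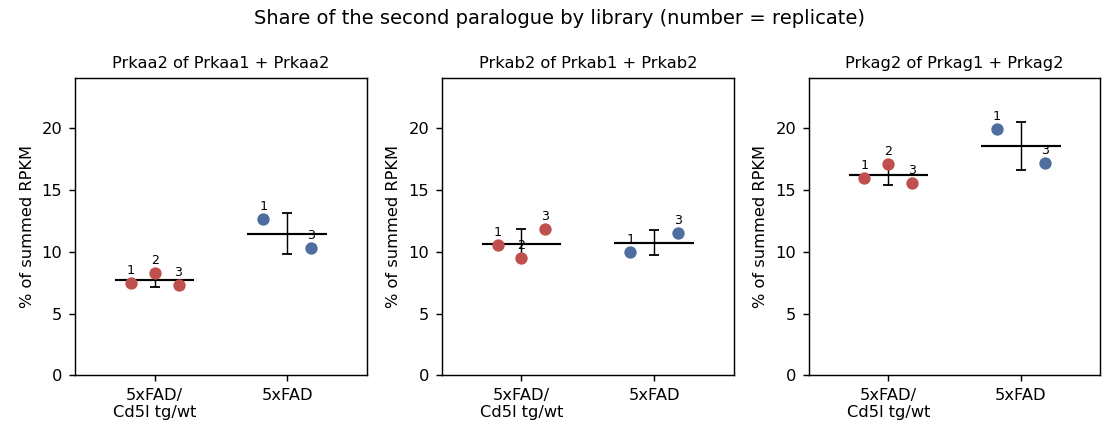
The 3 panels plot the percentage of the summed RPKM of an alpha, beta or gamma gene pair that came from Prkaa2, Prkab2 or Prkag2, in each library, Cd5l-transgenic on the left and 5xFAD on the right. Numbers are replicates, and lines and bars are means and SD. The Prkaa2 share lies between 7.29% and 8.24% with the transgene and at 10.3% and 12.6% in 5xFAD, while the Prkab2 shares overlap and the Prkag2 shares reach 17.08% with the transgene and begin at 17.15% in 5xFAD.

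The upstream kinases did not separate the genotypes either. Stk11, which encodes LKB1 (ENSMUSG00000003068, chromosome 10, 79951637 to 79966516, plus strand), stood at 112.7, 116.8 and 103.9 CPM in the Cd5l-transgenic libraries and at 109.7 and 110.2 CPM in the 5xFAD libraries. Both 5xFAD values lay within the transgenic range, and the log2 fold change was 0.02 (SE 0.08). Camkk2, the calcium- and calmodulin-dependent activator (ENSMUSG00000029471, chromosome 5, 122869233 to 122917472, minus strand), stood at 72.9, 64.8 and 72.0 CPM with the transgene and at 85.1 and 69.5 CPM in 5xFAD. Its log2 fold change was -0.14 (SE 0.11). Like Prkag2, Camkk2 was highest in 5xFAD replicate 1, and without that library its log2 fold change was 0.012. The part of the plaque-associated genes in the values of Prkag2 and Camkk2 was not tested.

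**Figure D3:**
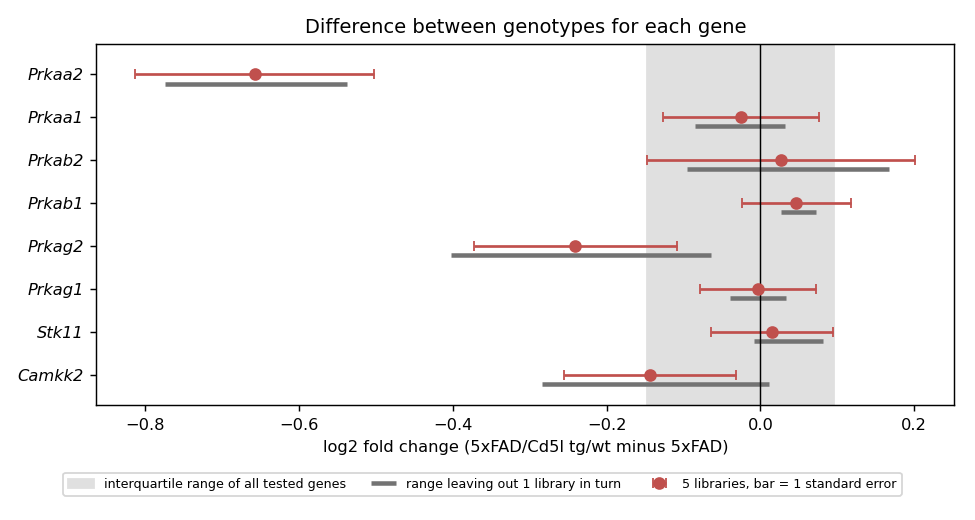
The horizontal axis is the log2 fold change, Cd5l-transgenic minus 5xFAD, for each of the 8 genes. Points and bars are the fit to 5 libraries with 1 standard error, dark lines the range when each library is left out in turn, and the grey band the interquartile range of all tested genes, -0.147 to 0.096. Prkaa2 lies at -0.66 with all left-out values between -0.77 and -0.54, and the range of Prkag2 ends at -0.065, inside the band.

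Among the 8 genes Prkaa2 also varied most from library to library. The highest library exceeded the lowest 1.84 times for Prkaa2, against 1.41 times for Prkag2, 1.36 times for Prkab2 and 1.31 times for Camkk2. For Prkaa1, Stk11, Prkab1 and Prkag1 these ratios were 1.18, 1.12, 1.09 and 1.05. The less abundant gene of each subunit pair thus had the wider range. Within genotypes the pooled SD of log2 CPM was 0.121 for Prkaa2, below Prkab2 (0.211), Prkag2 (0.158) and Camkk2 (0.142). It was 0.115 for Prkaa1 and at most 0.0704 for Stk11, Prkab1 and Prkag1. Prkaa2 was also the member with the fewest counts, 187 to 335 per library, so counting error weighs more on it than on Stk11, with 3237 to 3907 counts.

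Per length, the order of the mean level was Stk11 (24.2 RPKM), Prkab1 (20.6 RPKM), Prkag1 (16.2 RPKM), Prkaa1 (9.91 RPKM), Camkk2 (6.67 RPKM), Prkag2 (3.35 RPKM), Prkab2 (2.47 RPKM) and Prkaa2 (1.01 RPKM). Neighbours in that order did not overlap over the 5 libraries, except Prkag2 (2.91 to 4.12 RPKM) and Prkab2 (2.15 to 2.92 RPKM). The order depends on the gene lengths in the deposited table. Except for Prkaa1 and Prkaa2, these exceed the length of the longest-coding transcript in GENCODE M21. The gap was widest for Camkk2 (10921 against 4861 bases), Prkag2 (6480 against 3331 bases) and Stk11 (4580 against 2566 bases). With those transcript lengths Camkk2 stood at 15.0 RPKM, above Prkaa1. The lengths of Prkaa1 and Prkaa2 were the same in both sources, so the alpha share was not affected. The mean Prkab2 share over the 5 libraries was 7.65% with transcript lengths, against 10.7% with the deposited lengths. The mean Prkag2 share was 23.4% against 17.1%, with Prkag2 itself at 6.52 RPKM.

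Overlapping genes touched 2 of the 8 more than marginally. Prkag1 is overlapped on the opposite strand by B130046B21Rik, which had 27 to 53 counts per library, and 30.9% of the 50-base stretches of its longest-coding transcript were antisense to transcripts of that gene. Stk11 is overlapped on the opposite strand by Cbarp, with 270 to 325 counts and 7.27% of the stretches of its longest-coding transcript. The sources used here do not state the strand setting, so the counts of these pairs may be mixed. No gene in the table overlaps Prkaa2 or Camkk2.

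The pattern of Prkaa2 over the 5 libraries was then compared with that of 10510 other genes averaging 5 CPM or more, by the Euclidean distance between centred log2 CPM values. The nearest were Cxcr4 (distance 0.167), Mdfic (0.224), Bambi (0.284), Rragd (0.289), Tmem178 (0.293) and Fblim1 (0.301), against a median distance of 0.751. A gene at the same level in all 5 libraries would lie at 0.746, close to that median. The measure thus mainly picks genes that share the difference for which Prkaa2 was chosen. The nearest of the other 7 AMPK genes lay at 0.511. Cxcr4, the receptor of the chemokine CXCL12, stood at 50.7, 49.8 and 52.8 CPM in the Cd5l-transgenic libraries and at 93.9 and 71.2 CPM in the 5xFAD libraries. Bambi, a membrane pseudoreceptor that dampens TGF-beta signalling, stood at 12.5, 12.9 and 12.9 CPM with the transgene and at 22.5 and 15.2 CPM in 5xFAD. Rragd encodes a Rag GTPase that relays amino acid supply to mTORC1, the growth-promoting kinase complex that AMPK restrains. It stood at 33.00, 37.7 and 32.6 CPM with the transgene and at 52.6 and 42.6 CPM in 5xFAD. All 6 genes were highest in 5xFAD replicate 1, and their log2 fold changes ran from -0.69 (SE 0.13) for Cxcr4 to -0.46 (SE 0.16) for Fblim1. Without 5xFAD replicate 1 these values ran from -0.48 for Cxcr4 to -0.21 for Fblim1, and without 5xFAD replicate 3 from -0.88 for Cxcr4 to -0.61 for Rragd. The part of the plaque-associated genes, also highest in 5xFAD replicate 1, was not tested. The 6 genes were picked for this likeness, so their difference between genotypes is a description.

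**Figure D4:**
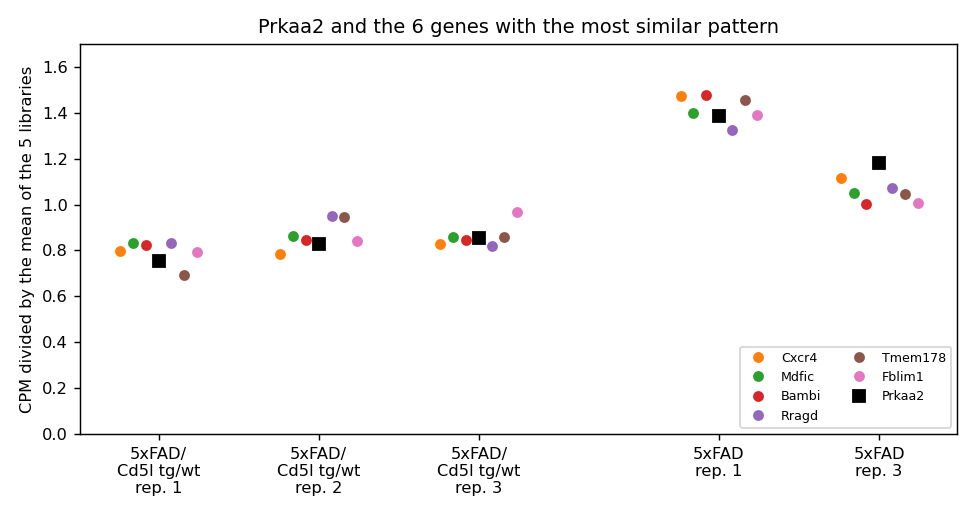
Values are CPM divided by the mean of the 5 libraries, for Prkaa2 (black squares) and its 6 nearest genes (coloured points), with the Cd5l-transgenic libraries left and the 5xFAD libraries right. All 7 genes lie highest in 5xFAD replicate 1, and Prkaa2 is the one that stays highest in 5xFAD replicate 3.

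Genes around AMPK were followed in 6 lists, and edgeR called none of the 95 tested genes (of 100 listed) in either direction. Their median log2 fold change was -0.03, as it was over all tested genes (-0.03), and 59 of the 95 lay below 0, against 57.3% of all genes. In all Cd5l-transgenic libraries 7 lay above and 5 below both 5xFAD libraries, against 7.2% and 8.69% of all tested genes. At an unadjusted edgeR p under 0.05, 1 of the 95 was higher (Adipor2) and 0 were lower, against 1.14% and 1.5% of all tested genes.

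Upstream regulators had a median of -0.0071 over 18 tested genes, with 8 above and 10 below 0. Adipor2, which encodes an adiponectin receptor, stood at 126.1, 141.3 and 121.8 CPM in Cd5l-transgenic libraries and at 108.2 and 114.1 CPM in 5xFAD libraries. Its log2 fold change was 0.22 (SE 0.09; edgeR adjusted p = 0.995). Cab39l, a relative of the MO25 scaffold that holds LKB1 in its active complex, stood at a log2 fold change of -0.38 (SE 0.21). It stood at 32.4 to 35.9 CPM with the transgene and at 33.1 and 54.1 CPM in 5xFAD replicates 1 and 3. Only 5xFAD replicate 3, the library richest in choroid plexus markers, was high, and the part of these markers in the Cab39l value was not tested. Without 5xFAD replicate 3 the log2 fold change of Cab39l was 0.02, and without 5xFAD replicate 1 it was -0.68. Sesn2, a stress-induced sestrin that favours AMPK activity, was at 0.29 (SE 0.17), or 0.15 without 5xFAD replicate 1. The LKB1 partners Strada and Cab39 were at -0.0036 and -0.07.

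The 12 AMPK-related kinases, which LKB1 also phosphorylates, had a median of 0.06, with 7 above and 5 below 0. Mark2, a kinase of microtubule-binding proteins, stood at 111.8, 107.3 and 116.9 CPM with the transgene and at 118.4 and 119.6 CPM in 5xFAD (log2 fold change -0.09, SE 0.07). The next by unadjusted p were Snrk at 0.14 and the salt-inducible kinase Sik1 at 0.21, which was highest in Cd5l-transgenic replicate 2 (52.0 CPM). Without that library Snrk was at 0.00069 and Sik1 at -0.016.

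The list for metabolism and mitochondria, which mixed AMPK substrates with related genes, had a median of -0.05, with 13 of 17 below 0. Among its genes with the smallest unadjusted p were the triglyceride lipase Pnpla2 (0.12, SE 0.08) and the glycolytic regulator Pfkfb3 (-0.26, SE 0.23). Pfkfb3 was at -0.012 without 5xFAD replicate 1. The acetyl-CoA carboxylases Acaca and Acacb, the best-known AMPK targets, were at -0.05 and 0.0028.

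The list for autophagy, mTORC1 control and transcription mixed AMPK substrates with other genes of these processes, such as Rheb. Its median was -0.05, with 19 of 28 below 0. In all Cd5l-transgenic libraries 4 lay below both 5xFAD libraries and 2 above (8.69% and 7.2% of all tested genes). Ulk1, the autophagy-starting kinase, stood at 74.1, 76.0 and 68.8 CPM with the transgene and at 76.1 and 77.2 CPM in 5xFAD (log2 fold change -0.07, SE 0.08). Rheb, the GTPase that activates mTORC1, was at -0.15 (SE 0.08). The folliculin partner Fnip2 was at -0.31 (SE 0.15), with 157.5 to 164.8 CPM with the transgene and 234.4 and 164.5 CPM in 5xFAD replicates 1 and 3. Without 5xFAD replicate 1 it was at -0.03. The histone deacetylase Hdac7 was at 0.83 (SE 0.36), highest in Cd5l-transgenic replicate 2 (30.7 CPM), where endothelial markers were also highest (1482 CPM, against 717.4 to 861.0 CPM elsewhere); their part in the result was not tested. Without that library Hdac7 was at 0.45.

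The coactivator Ppargc1a (PGC-1 alpha), named after its values were seen, had the lowest value of all the lists, -1.70 (SE 0.75). It stood at 0.840, 1.13 and 1.21 CPM with the transgene and at 0.983 and 5.70 CPM in 5xFAD, so that only 5xFAD replicate 3, the library richest in choroid plexus markers, was high. Without that library its log2 fold change was 0.11, and without Cd5l-transgenic replicate 2 as well it was 0.076. The part of the choroid plexus markers in the Ppargc1a value was not tested.

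Calmodulin and its kinases had a median of -0.03 over 9 tested genes. Camk2a was at 0.51 (SE 0.22), or 0.31 without Cd5l-transgenic replicate 2. Camk1 was at -0.11, or 0.092 without 5xFAD replicate 1, and Calm2 was at -0.07, or -0.013 without Cd5l-transgenic replicate 2. The enzymes that interconvert adenine nucleotides, and so set the AMP level that AMPK reads, had a median of -0.02 over 11 tested genes, with Ak1 at -0.16, Ak3 at 0.15 and Ak6 at 0.17. Ak1 was at -0.014 without 5xFAD replicate 1, and Ak3 at 0.0051 without Cd5l-transgenic replicate 2.

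**Figure D5:**
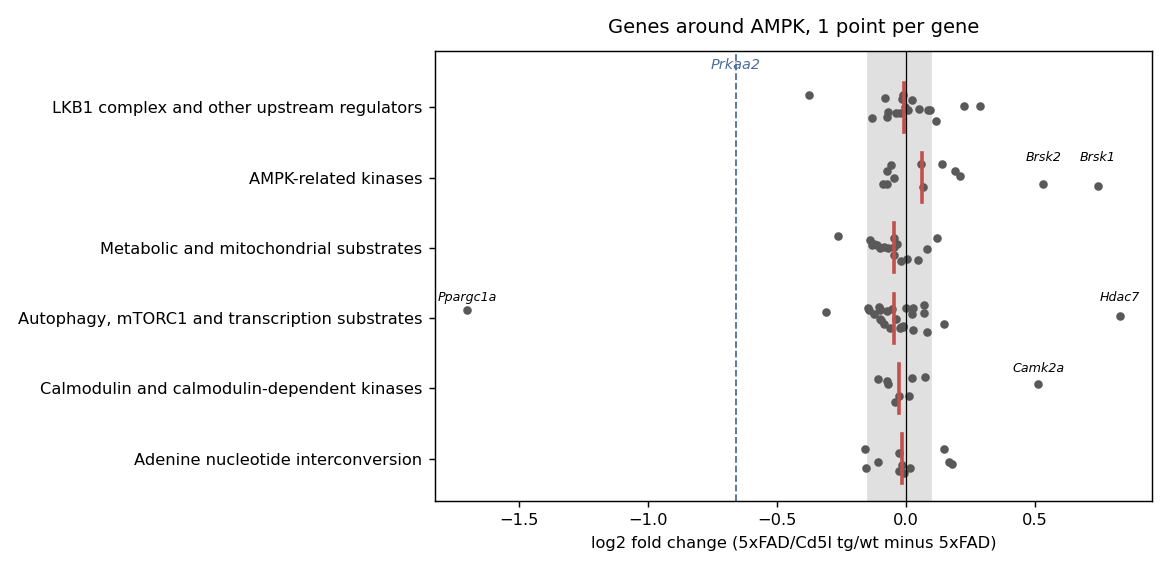
Each point is 1 tested gene of the 6 lists, placed by its log2 fold change, Cd5l-transgenic minus 5xFAD; red lines are list medians and the grey band is the interquartile range of all tested genes, -0.147 to 0.096. The medians lie between -0.05 and 0.06, and the dashed line marks Prkaa2 at -0.66.

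Other marker lists were compared by their summed CPM. Neuronal (17.97 to 32.33 CPM with the transgene, 12.03 to 35.69 CPM in 5xFAD), astrocyte (318.2 to 458.3 and 309.0 to 337.1 CPM) and oligodendrocyte precursor markers (54.2 to 180.1 and 77.3 to 115.6 CPM) overlapped between genotypes. So did mural and fibroblast markers (233.3 to 407.5 and 165.8 to 240.6 CPM) and border-associated macrophage markers (224.3 to 398.6 and 259.7 to 290.8 CPM). Endothelial (813.5 to 1482 and 717.4 to 727.9 CPM), monocyte and neutrophil (79.4 to 188.7 and 59.9 to 76.6 CPM) and erythroid markers (7.402 to 20.76 and 1.496 to 2.406 CPM) were higher in all Cd5l-transgenic libraries than in both 5xFAD libraries, as were oligodendrocyte markers. Prkaa2 ran the opposite way to those lists, and the part of these markers in its value was not tested. No marker of the 11 lists was at 0 in all 5 libraries.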

How the data were processed

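The values were whole-number counts per Ensembl gene, deposited by the authors as 1 table with 1 column per library and no normalisation. Per the submitters' processing notes, the genome build was GRCm39 (mm39). The sources used here do not state the aligner, counter, annotation release or strand setting. Columns were matched to libraries by name; 1 column (Cd5l-transgenic replicate 3) has its letter pairs in the opposite order. The protocol and titles name CD11b-positive cells, whereas another label speaks of brain tissue. The titles number the mice, and each library was taken as a separate animal.

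Genes were filtered with filterByExpr (17724 kept, all 8 AMPK genes among them), scaled with TMM factors (0.952 to 1.02) and fitted with the edgeR 4.0.16 quasi-likelihood test, robust, on genotype alone (R 4.3.3). P-values were adjusted over all tested genes. Standard errors were derived from the F statistic. RPKM used the gene length in the deposited table. Library pairs differed by more than sampling noise (chi-square per degree of freedom 19.5 to 55.2), so each counts as 1 sample. Scripts were tested on simulated counts.

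The members, lists and tests were chosen with earlier results of these data known. Named genes were the 8 members, Cd5l and Itgam, up to 3 genes per list with a mean of at least 5 CPM by smallest unadjusted p, and the 6 genes nearest to Prkaa2 in pattern. Further genes of the lists are named for their role. The values of 1 gene under this rule are not reported here. Alternatives were other size factors, filters and tests (DESeq2 1.42.0, limma 3.58.1 voom, legacy dispersion), a replicate block, and libraries left out.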

Additional observations from a re-analysis of the deposited data

How the results depend on the processing

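Prkaa2 had a log2 fold change between -0.78 and -0.54 under all 14 alternatives. Since its genotypes do not overlap and it was chosen for this difference, the shared sign adds no support. Over the same alternatives Prkag2 ran from -0.44 to -0.065, Camkk2 from -0.28 to 0.012 and Prkab1 from 0.027 to 0.090. Prkaa1, Prkab2, Prkag1 and Stk11, like Camkk2, took both signs. The count of called genes was 11 with DESeq2, 0 to 10 when each library was left out (10 without 5xFAD replicate 1), and 41 without 5xFAD replicate 3 and Cd5l-transgenic replicate 2 together. The cause was not tested. With 1 library of 5xFAD left, that mouse is assumed to vary like the other group.

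Values of pathway genes and pattern neighbours without single libraries were chosen after seeing the data. The Prkaa2 share of alpha differed by -5.65 percentage points on counts without length scaling, and by -4.95 to -2.59 points when each library was left out. With GENCODE transcript lengths, an alternative chosen after seeing the data, mean levels were 43.1 RPKM for Stk11, 30.3 RPKM for Prkab1, 21.3 RPKM for Prkag1, 15.0 RPKM for Camkk2 and 6.52 RPKM for Prkag2.

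List medians stayed between -0.10 and 0.14 under every alternative run. The autophagy and mTORC1 median was -0.027 with DESeq2 size factors, -0.028 with upper-quartile factors, -0.027 with the DESeq2 test and -0.0062 with at least 5 CPM in 2 samples. The adenine nucleotide median was 0.0034 with DESeq2 size factors, 0.0040 with the DESeq2 test and 0.016 with the 5 CPM filter. That filter gave 0.024 for upstream regulators and 0.0068 for calmodulin. With 5xFAD replicate 3 and Cd5l-transgenic replicate 2 both left out, upstream regulators were at 0.079, calmodulin at 0.0018 and adenine nucleotides at 0.033. Leaving out each library gave -0.010 to 0.032 for upstream regulators, -0.021 to 0.14 for related kinases and -0.10 to -0.0041 for the metabolic list. It gave -0.060 to -0.018 for autophagy and mTORC1, -0.036 to 0.023 for calmodulin and -0.027 to 0.0084 for adenine nucleotides.

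With the replicate number as a block, Prkaa2 stood at -0.67 and edgeR called 0 genes. The numbers pair no mice in the labels, and deviations of same-numbered libraries correlated at 0.274 and -0.243 for replicates 1 and 3. The groups held 3 and 2 mice, and the rarest member had at least 187 counts in each library.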

Other observations

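Prkaa1 and Prkab2 followed the replicate number more closely than the genotype. Prkaa1 stood at 50.8 CPM in Cd5l-transgenic replicate 3 and 48.3 CPM in 5xFAD replicate 3, against 43.0 to 44.97 CPM in the other 3 libraries. Prkab2 stood at 14.9 CPM in Cd5l-transgenic replicate 3 and 13.6 CPM in 5xFAD replicate 3, against 10.9 to 12.2 CPM in the others. With only 2 mice sharing that number and no label that ties them, this is given as values only.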
